A study of Mus musculus with 6 samples.

Results

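The genes of de novo lipogenesis, the route by which cells build fatty acids from sugar carbon, were followed in epididymal adipose tissue, the visceral fat beside the testis. They were picked by symbol from the deposited expression table: 3 regulators (Mlxipl, Srebf1 and Thrsp) and 7 enzymes (Acly, Acaca, Acacb, Fasn, Me1, Elovl6 and Scd1), 10 of 35275 genes. All 10 were found and all 10 passed the filter of at least 0.5 FPKM in 3 or more samples that left 14383 genes for testing. FPKM is the number of fragments per kilobase of gene, scaled to the library's reads, so levels can be set side by side between genes. RNA came from male mice of the C57BL/6 strain with 2 genotypes and 3 samples each. The control mice were Tfrcfl/fl, with both copies of the transferrin receptor gene flanked by loxP sites, and the knockout mice were TfrcAKO, a name the labels do not spell out. The labels name no Cre driver and leave unsaid whether the controls carried one. Both groups were given a diet with 60% fat from the age of 2 months, ate it for 10 weeks and were 4.5 months old at sampling. Nothing in the labels tells whether the samples are different animals, and the p-values therefore reflect only how far these samples spread, which may be technical.

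In the pathway, ATP citrate lyase (Acly) splits cytosolic citrate into acetyl-CoA, acetyl-CoA carboxylases (Acaca and Acacb) turn it into malonyl-CoA, and fatty acid synthase (Fasn) joins these units into palmitate with NADPH, part of which malic enzyme (Me1) supplies. Elovl6 lengthens palmitate and Scd1 places a double bond in the product. The carbohydrate-responsive factor ChREBP (encoded by Mlxipl) and the insulin-responsive SREBP-1 (encoded by Srebf1) switch these enzyme genes on, and Thrsp, also called Spot 14, is a small thyroid hormone and sugar-responsive protein linked to lipogenic output. In white fat this pathway is known to depend on insulin-driven glucose uptake and to be damped by fat-rich food.

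The sequences before 4 gene starts are shown because they bear on what the deposited values of Mlxipl, Srebf1 and Fasn count and because those genes rose in the knockout. Each is the stretch of 250 bases before a RefSeq transcript start (build GRCm38.p6, the assembly of mm10), written 5′ to 3′ on the strand of the gene. Capitals mark every match, on either strand, to CACGTG (1 form of the E-box), TCACNCCAC (a sterol regulatory element core) or CCAAT (the CCAAT box).
Mlxipl, upstream start, plus strand, chr5:135089640-135089889: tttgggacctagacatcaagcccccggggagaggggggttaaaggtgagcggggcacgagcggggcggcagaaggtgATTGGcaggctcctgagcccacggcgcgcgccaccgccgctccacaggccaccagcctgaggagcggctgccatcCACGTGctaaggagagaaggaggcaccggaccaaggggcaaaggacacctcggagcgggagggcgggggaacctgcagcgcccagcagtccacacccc
Mlxipl, downstream start, plus strand, chr5:135106641-135106890: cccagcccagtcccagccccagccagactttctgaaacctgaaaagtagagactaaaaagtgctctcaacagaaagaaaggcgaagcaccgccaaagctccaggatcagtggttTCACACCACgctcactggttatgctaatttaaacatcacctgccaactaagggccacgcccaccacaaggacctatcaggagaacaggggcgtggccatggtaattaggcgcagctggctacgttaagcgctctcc
Srebf1, innermost start, minus strand, chr11:60210472-60210721: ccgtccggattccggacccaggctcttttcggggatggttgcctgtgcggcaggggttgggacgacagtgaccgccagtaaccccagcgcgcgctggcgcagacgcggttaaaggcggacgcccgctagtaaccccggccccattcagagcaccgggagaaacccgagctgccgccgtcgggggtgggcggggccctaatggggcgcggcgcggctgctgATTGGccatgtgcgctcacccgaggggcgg
Fasn, minus strand, chr11:120824548-120824797: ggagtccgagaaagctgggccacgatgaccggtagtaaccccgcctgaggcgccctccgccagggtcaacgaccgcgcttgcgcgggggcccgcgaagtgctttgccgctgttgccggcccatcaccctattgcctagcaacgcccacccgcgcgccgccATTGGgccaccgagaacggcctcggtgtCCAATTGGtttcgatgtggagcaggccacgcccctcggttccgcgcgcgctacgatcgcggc
The upstream Mlxipl start, that of the short ChREBP-beta form, lies 17001 bases before the start of the deposited gene (chromosome 5, 135106891 to 135138382), so reads on its first exon were not counted there, and the value of Mlxipl does not separate the forms. The innermost Srebf1 start is that of SREBP-1c and lies inside the deposited gene (chromosome 11, 60199089 to 60222581, minus strand), whose value sums all forms. The RefSeq start of Fasn lies 369 bases outside the deposited gene (chromosome 11, 120805940 to 120824178, minus strand).

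Windows were found for 9 of the 10 genes, 13 windows in all, and the Scd1 start was not analysed here. The E-box form CACGTG was present in 1 of the 13 windows, against 6.02% of all 32851 windows of that length. It lay in the upstream Mlxipl window, 98 to 93 bases before the start. The sterol regulatory element core in the form TCACNCCAC was present in 1, the downstream Mlxipl window, against 1.05% of all windows. The CCAAT box was present in 7 of the 13, against 33.8% of all windows. It lay 3 times in the Fasn window, 2 of these matches overlapping each other, and 2 times in the Thrsp window (chromosome 7, 97417551 to 97417800). The full consensus of the carbohydrate response element was in none of the 13 windows and in 0.0974% of all windows. Only these exact patterns were searched, so a window without a match may still hold another form of the same element. These matches describe letters in the reference sequence, and no binding was measured.

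Recovered from the FPKM values, the depth was 25252839 to 30650624 gene-assigned reads per sample, and a lipogenic gene had between 318 and 748356 reads in a sample. Tfrc itself was at 11.1, 13.2 and 11.9 FPKM in the control samples and at 7.10, 8.27 and 9.50 FPKM in the knockout samples, the direction the labels give, a change of −0.52 ± 0.12 (SE; limma adjusted p = 0.0147); a value over whole tissue does not show how complete the deletion was. The tissue carried its defining markers: Adipoq, which encodes adiponectin, was at 384 ± 98.9 FPKM in control and 1464 ± 356 FPKM in knockout fat, and Plin1, the perilipin of the lipid droplet, at 246 ± 48.7 and 671 ± 178 FPKM (SD, n = 3 each). Of 19 tested mature adipocyte markers 17 rose and none fell, where 21.9% of all tested genes rose and 21.6% fell. Their summed level was 11318 to 15212 FPKM in control and 26988 to 39546 FPKM in knockout samples. Of 15 macrophage markers 12 fell and none rose, with a summed level of 6096 to 7028 FPKM in control and 1505 to 3358 FPKM in knockout samples. Lyz2, lysozyme, was the most abundant of them at 3284 ± 346 and 1179 ± 447 FPKM (SD, n = 3 each). Without control replicate 2, 5 macrophage markers fell and 14 adipocyte markers rose, and without control replicate 3, 7 fell and 14 rose. Of all 14383 tested genes, 2047 rose and 1324 fell in the first of these fits, and 1897 rose and 1559 fell in the second. All 10 endothelial markers rose, by a median of 1.24 on the log2 scale. Markers of the epididymal epithelium summed to 0.0942 to 0.242 FPKM in control and 0.0729 to 2.39 FPKM in knockout samples, with Lcn5 and Crisp4 at 0 in all 6 samples. In whole tissue, more cells of a type and more RNA per cell cannot be told apart.

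Most lipogenic genes were higher in the knockout fat, but the mature adipocyte markers rose as well. Set against the mean of those markers, Thrsp alone of the 10 was called higher, and Acly, Me1 and Elovl6 were called lower. On that scale 0.167% of all tested genes were called higher and 92.6% lower. The log2 fold changes of the markers themselves ran from −0.20 to 3.27. Without that scaling, 8 of the 10 genes rose at a limma adjusted p under 0.05 and none fell. They were all 3 regulators and 5 of the 7 enzymes, while Acly and Me1 did not pass. Over all tested genes 43.5% were called, 21.9% higher and 21.6% lower in the knockout. Without control replicate 2 the number called was 2, and without control replicate 3 it was 3. The changes of the 8 genes ran from 0.70 for Elovl6 to 2.59 for Thrsp on the log2(FPKM + 0.5) scale, on which all fold changes here are given. Their limma adjusted p lay between 0.00491 and 0.0282. As a median, the 10 genes had a log2 fold change of 1.27, and all tested genes one of −0.03. In 9 of the 10 genes every knockout sample lay above every control sample, an arrangement that 29.1% of all tested genes showed. Together the 10 genes took 0.825% ± 0.190 of the reads of a control sample and 2.73% ± 1.14 of those of a knockout sample (SD, n = 3 each), of which Scd1 alone took 0.562% and 2.04%.

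**Figure D1:**
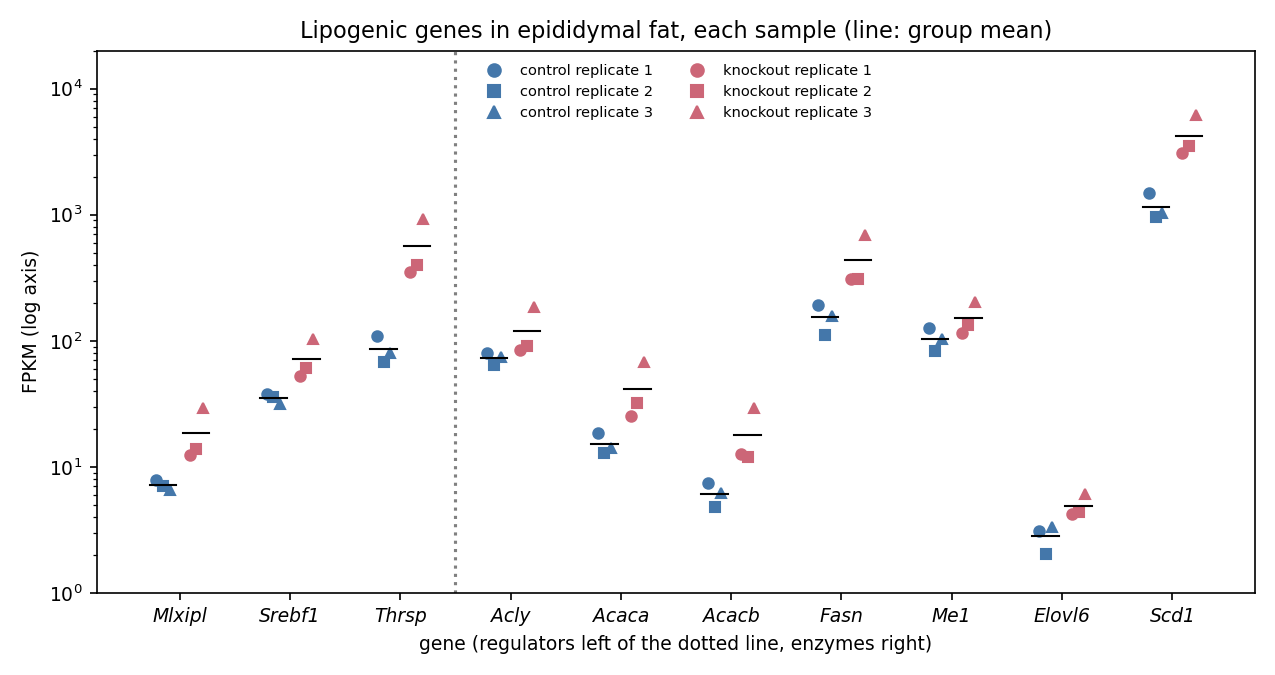
FPKM (log axis) of the 10 lipogenic genes in each of the 6 samples, with a line at each group mean, 3 regulators on the left and 7 enzymes on the right. Knockout replicate 3 is the highest sample for all 10 genes, and only Me1 has groups that overlap.

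Among the regulators, Thrsp moved most. Thrsp (ENSMUSG00000035686, chromosome 7, 97412938 to 97417730, minus strand) had levels of 109, 67.2 and 80.4 FPKM in the controls and of 350.5, 398 and 932 FPKM in the knockouts, each in the order of replicates 1 to 3, as below. The lowest knockout sample thus stood far above the highest control sample, and replicate 3 stood apart among the knockouts. Thrsp rose by 2.59 ± 0.38 (SE; limma adjusted p = 0.00491), and 99.9% of tested genes had a smaller log2 fold change. Mlxipl (ENSMUSG00000005373), which encodes ChREBP, was at 7.81, 7.05 and 6.55 FPKM in control and at 12.3, 13.8 and 29.5 FPKM in knockout samples. The control samples lay close together and the groups did not overlap. Mlxipl rose by 1.21 ± 0.31 (SE; limma adjusted p = 0.0201). Srebf1 (ENSMUSG00000020538), which encodes SREBP-1, was at 37.8, 35.6 and 31.3 FPKM in control and at 52.7, 60.3 and 103 FPKM in knockout samples. It rose by 0.97 ± 0.24 (SE; limma adjusted p = 0.0185), also without overlap. The span of Srebf1 overlaps that of Rai1 on the other strand, by a length not measured here. As the strand setting of the counting is not given in the sources used here, reads within the shared stretch cannot be told apart.

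The enzymes of the central chain, Acaca, Acacb and Fasn, rose by similar amounts, whereas the citrate-splitting Acly did not pass the test. Fasn (ENSMUSG00000025153) was at 191, 112 and 157 FPKM in control and at 310.2, 310.2 and 685 FPKM in knockout samples. Knockout replicates 1 and 2 were nearly equal and replicate 3 was far higher. Fasn rose by 1.43 ± 0.35 (SE; limma adjusted p = 0.0183). Acaca (ENSMUSG00000020532, chromosome 11, 84129672 to 84401651), the cytosolic carboxylase that feeds fatty acid synthesis, was at 18.5, 12.8 and 14.0 FPKM in control and at 25.2, 32.3 and 67.5 FPKM in knockout samples, a rise of 1.33 ± 0.35 (SE; limma adjusted p = 0.0233). Acacb (ENSMUSG00000042010, chromosome 5, 114146535 to 114250761), the mitochondria-bound carboxylase whose malonyl-CoA restrains fatty acid import into mitochondria, was at 7.41, 4.82 and 6.15 FPKM in control and at 12.6, 11.9 and 29.4 FPKM in knockout samples. It rose by 1.37 ± 0.35 (SE; limma adjusted p = 0.0203). Neither carboxylase had groups that overlapped, and within a sample Acaca was at 2.47 ± 0.190 times the level of Acacb in the controls and at 2.34 ± 0.363 times in the knockouts (SD, n = 3 each). Acly (ENSMUSG00000020917, chromosome 11, 100476353 to 100528000) had values of 79.7, 63.8 and 74.6 FPKM in control and of 83.8, 91.6 and 186 FPKM in knockout samples. Knockout replicates 1 and 2 lay just above the control samples. Its log2 fold change was 0.63 ± 0.30 (SE; limma adjusted p = 0.124), and it was 0.27 without knockout replicate 3 (limma adjusted p = 0.0728).

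The enzymes at the ends of the chain spanned the set's range. Scd1 (ENSMUSG00000037071, chromosome 19, 44394451 to 44407709), the stearoyl-CoA desaturase, was the most abundant of the 10 genes in both groups. It was at 1486, 962 and 1038 FPKM in control and at 3077, 3478 and 6128 FPKM in knockout samples. The lowest knockout sample was above the highest control sample, and Scd1 rose by 1.82 ± 0.30 (SE; limma adjusted p = 0.00624). Scd1 has closely related copies. Scd3 and Scd4 were below the filter with means of 0.262 ± 0.0505 and 0.0633 ± 0.0426 FPKM (SD, n = 3) in the knockout, and Scd2, at means of 80.2 and 116 FPKM, rose by 0.55 ± 0.18 (SE; limma adjusted p = 0.0436). How the counting split reads between these copies is uncertain. Elovl6 (ENSMUSG00000041220, chromosome 3, 129532386 to 129638495), the elongase of palmitate, had the lowest level of the set. Its values were 3.12, 2.05 and 3.31 FPKM in control and 4.24, 4.37 and 6.06 FPKM in knockout samples, and it rose by 0.70 ± 0.20 (SE; limma adjusted p = 0.0282). Me1 (ENSMUSG00000032418, chromosome 9, 86581371 to 86695953), the cytosolic malic enzyme, was at 126, 83.1 and 103 FPKM in control and at 116, 132 and 204 FPKM in knockout samples. Knockout replicate 1 lay below control replicate 1, so the groups overlapped. The log2 fold change of Me1 was 0.51 ± 0.24 (SE; limma adjusted p = 0.127), and 0.27 without knockout replicate 3 (limma adjusted p = 0.236).

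The spread within the knockout group came mostly from 1 library. Knockout replicate 3 was the highest sample for 10 of 10 genes, by 1.41 times (Elovl6) to 2.49 times (Thrsp) the mean of knockout replicates 1 and 2. It also had the highest mean of the mature adipocyte markers, 1.92 above the control mean on the log2 scale against 1.26 and 1.35 in replicates 1 and 2, and the lowest mean of the macrophage markers, 1.70 below the control mean against 0.70 and 0.81. Without that library the same direction held for all 10 genes and 8 were called higher, when 21.3% of all genes were. The changes were then smaller, 2.15 for Thrsp, 1.52 for Scd1, 1.05 for Fasn, 0.83 for Mlxipl and 0.69 for Srebf1. Among the controls, replicate 2 was lowest for 8 of 10 genes and replicate 1 highest for 9 of 10. Leaving out control replicate 2 left 2 of the 10 genes called, Thrsp and Scd1, and leaving out control replicate 3 left 3, Thrsp, Scd1 and Elovl6. In those fits 14.2% and 13.2% of all genes were called higher. The log2 fold changes of Fasn were 1.22 (adjusted p = 0.0692) and 1.46 (adjusted p = 0.0574) by limma. Without both knockout replicate 3 and control replicate 2, 8 were called higher, against 17.5% of all genes.

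**Figure D2:**
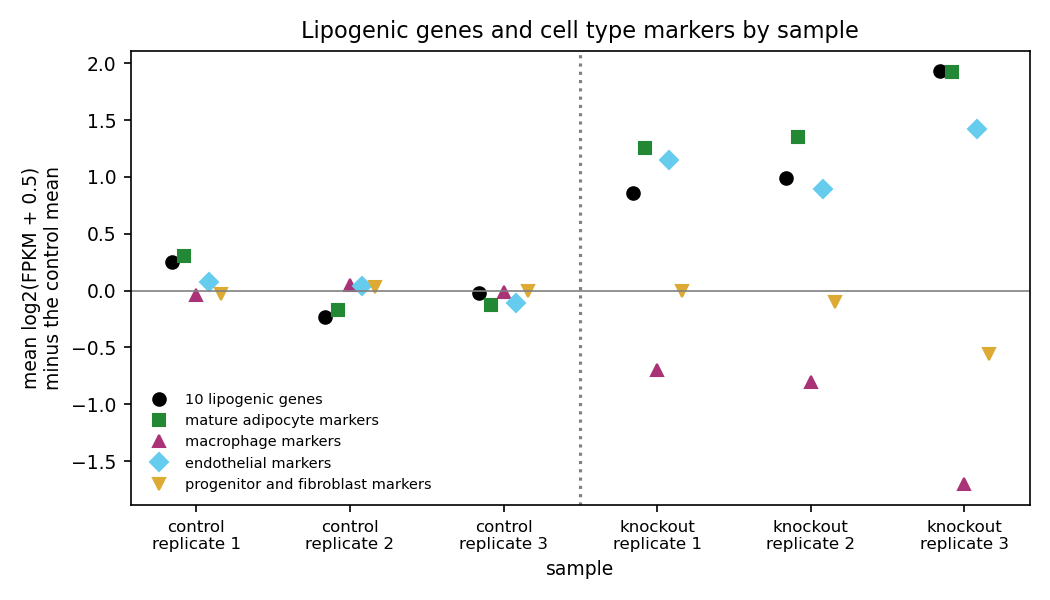
Mean log2(FPKM + 0.5) of the 10 lipogenic genes and of 4 lists of cell type markers in each of the 6 samples, as the difference from the control mean. The lipogenic genes and the mature adipocyte markers are highest in knockout replicate 3, at 1.93 and 1.92, where the macrophage markers are lowest, at −1.70.

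Regulators and enzymes were compared as groups. Their median log2 fold changes were 1.21 (3 regulators) and 1.33 (7 enzymes), a gap of −0.11. Per sample, the median log2 level of the regulators minus that of the enzymes was −1.06, −0.83 and −1.24 in control and −0.66, −0.60 and −0.85 in knockout samples. That value, which is Srebf1 over Acly in every sample, was −1.05 ± 0.21 in control and −0.71 ± 0.13 in knockout fat (SD, n = 3 each), a shift of 0.34 beside a within-group SD of 0.17, although control replicate 2 lay above knockout replicate 3. The summaries differ in sign because they rest on different genes, the first on Mlxipl and Acaca, so neither stands for the groups as a whole. Without both knockout replicate 3 and control replicate 2 the gap between the median fold changes was 0.016. Within each group the genes differed more, since regulators ran from 0.97 (Srebf1) to 2.59 (Thrsp) and enzymes from 0.51 (Me1) to 1.82 (Scd1). The genes are not replicates, so no test was made over them.

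The balance within the pathway was read as the ratio of each gene to Fasn in the same sample. Thrsp was at 0.571, 0.602 and 0.511 of the Fasn level in control and at 1.13, 1.28 and 1.36 in knockout samples, so Thrsp lay below Fasn in every control and above it in every knockout sample. The ratio of Me1 to Fasn was 0.656, 0.744 and 0.651 in control and 0.374, 0.426 and 0.297 in knockout samples. That of Acly to Fasn was 0.416, 0.572 and 0.474 against 0.270, 0.295 and 0.271, and that of Elovl6 and of Srebf1 to Fasn was also lower in every knockout sample. Scd1 was at 7.66 ± 1.02 times Fasn in the controls and at 10.0 ± 1.14 times in the knockouts (SD, n = 3 each), without overlap. The ratios of Mlxipl, Acaca and Acacb to Fasn overlapped between the groups; for Acacb they were 0.0403 ± 0.00248 and 0.0406 ± 0.00238 (SD, n = 3 each). Thus 6 of 9 ratios did not overlap, where 84.4% of all tested genes had such a ratio to Fasn. Each of the 6 had a two-sided exact permutation p of 0.10, the smallest that 3 samples against 3 allow, and 0.15 adjusted over the 9 ratios.

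**Figure D3:**
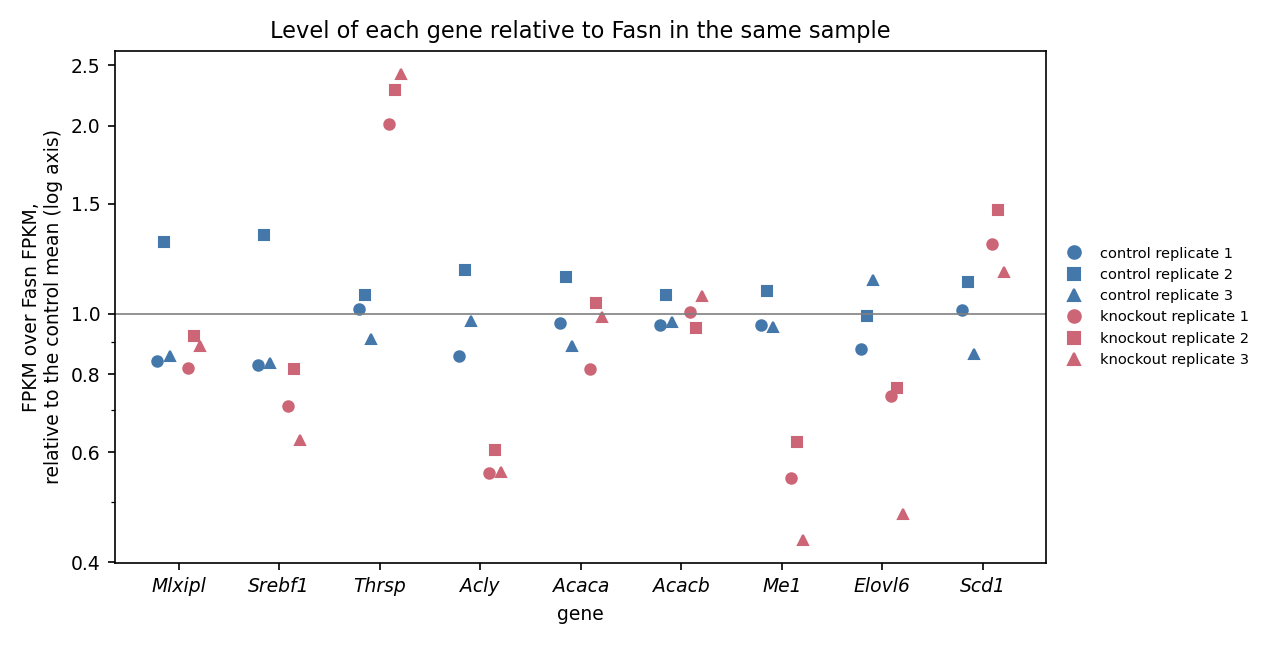
FPKM of each of 9 lipogenic genes divided by the FPKM of Fasn in the same sample and set relative to the control mean (log axis), for 3 control and 3 knockout samples. Thrsp lies above the control samples in all 3 knockout samples, Acly, Me1 and Elovl6 lie below them, and Acacb overlaps.

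As adipocyte markers moved in the same samples, each gene was also set against the mean of the 19 mature adipocyte markers, a list that holds none of the 10 genes. That mean was 1.51 higher in knockout than in control tissue, and on this scale the median over all tested genes was −1.54. Relative to the markers, Thrsp was higher by 1.08 ± 0.35 (SE; limma adjusted p = 0.00262), 1 of only 24 genes, or 0.167% of those tested, called higher on that scale. The relative changes were 0.31 ± 0.42 for Scd1, −0.084 ± 0.35 for Fasn, −0.14 ± 0.32 for Acacb, −0.19 ± 0.32 for Acaca and −0.30 ± 0.32 for Mlxipl, and limma called none of these (adjusted p from 0.357 to 0.819). Srebf1 was at −0.54 ± 0.32 (limma adjusted p = 0.0977). Acly, Me1 and Elovl6 fell relative to the markers, by 0.88, 0.999 and 0.81 (limma adjusted p = 0.00868, 0.00355 and 0.0169), when 92.6% of all tested genes were called lower. The order of the genes is the same on either scale, as the scaling shifts every gene alike. The marker mean's own spread thereby enters every gene. The limma errors and adjusted p on this scale therefore do not measure each gene's own spread. Me1 lay, relative to the markers, at −0.80, −0.92 and −0.66 in control and at −1.87, −1.78 and −1.73 in knockout samples. The limma error given for it was 0.34. The markers themselves differed widely, with log2 fold changes from −0.20 (Cd36) to 3.27 (Adrb3). Adrb3, Car3 (2.74) and Cfd (2.68) rose more than Thrsp, and the other markers had smaller changes than Thrsp. Lep (0.48), Lpl (0.62) and Cd36 had smaller changes than Acly and Elovl6, and the other markers larger ones. After the scaling 4 markers were called higher and 3 lower. Calls on this scale compare a gene with the marker mean, not with each marker, and are a description.

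**Figure D4:**
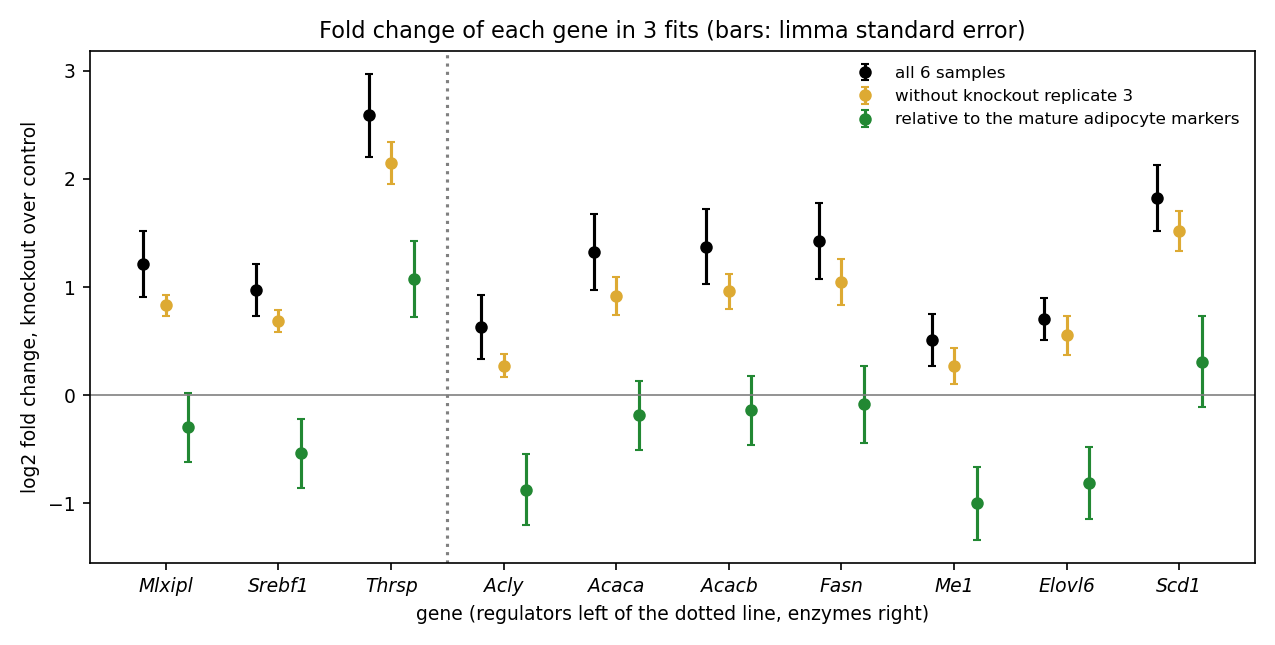
Log2 fold change of each lipogenic gene, knockout over control, with limma standard errors as bars, in the fit of all 6 samples, without knockout replicate 3, and relative to the mature adipocyte markers. All 10 genes lie above 0 in the first 2 fits. Relative to the mean of the markers, Thrsp alone of the 10 is called higher.

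The order of the levels changed little except for Thrsp. In control tissue it ran Scd1, Fasn, Me1, Thrsp, Acly, Srebf1, Acaca, Mlxipl, Acacb, Elovl6, from 1162 ± 283 down to 2.83 ± 0.678 FPKM (SD, n = 3 each). The samples of Fasn and Me1, of Me1 and Thrsp, of Thrsp and Acly, and of Mlxipl and Acacb overlapped across samples, yet within each of the 3 control samples the order was the same. In knockout tissue Thrsp moved up to the place after Scd1, at 560.1 ± 323 FPKM, between Scd1 at 4228 ± 1658 and Fasn at 435 ± 216 FPKM (SD, n = 3 each), and above Fasn in each of the 3 knockout samples, though the ranges overlapped. The other 9 genes kept their order. From Me1 down to Acacb, each gene's knockout samples overlapped those of the next, whereas Fasn lay above Me1 and Acacb above Elovl6 in every knockout sample. Within samples this order held too, except that Mlxipl lay below Acacb in knockout replicate 1.

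Around the pathway, genes that supply its carbon mostly rose. Of 15 tested genes of substrate and NADPH supply 10 rose and none fell, with a median of 0.64, where 21.9% of all tested genes rose. Aacs, which activates acetoacetate in the cytosol, rose by 1.43 ± 0.23, Pcx, the pyruvate carboxylase that refills citrate, by 1.56 ± 0.27, Mpc2, of the mitochondrial pyruvate carrier, by 0.91 ± 0.17, and the cytosolic malate dehydrogenase Mdh1 by 0.71 ± 0.12 (SE; limma adjusted p from 0.00599 to 0.00858). Pcx was at 145, 99.5 and 104 FPKM in control and at 261, 296 and 500.1 FPKM in knockout samples, which did not overlap. The NADPH-forming enzymes G6pdx, Pgd and Idh1 were not called, with log2 fold changes of 0.075, −0.23 and 0.016, as Me1 was not; these 3 were chosen after their values were seen. Without control replicate 2, and likewise without control replicate 3, 5 genes of the list rose, where 14.2% and 13.2% of all tested genes rose. Among 8 tested genes of sugar input and ChREBP targets 6 rose and 1 fell, with a median of 0.76. Slc2a4, the insulin-responsive glucose transporter, was at 8.73, 8.14 and 6.31 FPKM in control and at 22.9, 25.5 and 55.7 FPKM in knockout samples and rose by 1.99 ± 0.33. Pnpla3, a lipogenic target gene, rose by 1.18 ± 0.14, the glycerol phosphate dehydrogenase Gpd1 by 0.98 ± 0.20 and the fructose pathway kinase Tkfc by 0.53 ± 0.068 (SE; limma adjusted p from 0.00376 to 0.00992). The member that fell was the arrestin-like Arrdc4, chosen after its value was seen, at −0.50 (limma adjusted p = 0.0140). Mature adipocyte markers rose in the same samples. Set against them no gene of either list was called higher, while 10 of substrate supply and 4 of sugar input were called lower. On that scale 92.6% of all tested genes were called lower and 0.167% higher.

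The other regulators were called about as often as genes at large. Of 19 tested, 4 rose and 5 fell, where 21.9% of all tested genes rose and 21.6% fell, and the median of −0.03 was that of all genes. Insig2, which holds SREBP in the endoplasmic reticulum, rose by 0.65 ± 0.088 and Prkab2, a subunit of AMP-activated kinase, by 0.46 ± 0.10. Srebf2, which encodes the cholesterol regulator SREBP-2, fell by 0.74 ± 0.12 and Mbtps2, the protease that frees SREBPs, by 0.58 ± 0.10 (SE; limma adjusted p from 0.00411 to 0.0108). Srebf2 was at 24.1, 23.2 and 23.6 FPKM in control and at 16.3, 14.4 and 11.6 FPKM in knockout samples, the opposite direction to Srebf1. Mlx, the partner of ChREBP, was not called at −0.15. Mid1ip1, the paralog of Thrsp, fell by 0.32 (limma adjusted p = 0.0125); both were chosen after their values were seen. Without control replicate 2, 3 of these regulators rose and 2 fell, and without control replicate 3, 2 rose and 3 fell. Of all 14383 tested genes, 2047 rose and 1324 fell in the first of these fits, and 1897 rose and 1559 fell in the second.

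Genes of cholesterol synthesis, known targets of SREBP-2, were called about as often as genes at large. Of 21 tested 3 rose and 6 fell, with a median of −0.23, where 21.9% of all tested genes rose and 21.6% fell. The share called was close to the 43.5% of all tested genes. Sqle, squalene epoxidase, fell by 1.15 ± 0.15 and Msmo1, a sterol oxidase, by 0.99 ± 0.17 (SE; limma adjusted p = 0.00410 and 0.00651). Sqle was at 9.15, 7.27 and 10.9 FPKM in control and at 4.24, 3.71 and 3.41 FPKM in knockout samples, which did not overlap. Without control replicate 2 none rose and 8 fell, where 1324 of all 14383 tested genes fell. Without control replicate 3 none rose and 4 fell, where 1559 of all genes fell. Without both knockout replicate 3 and control replicate 2, 2 rose and 11 fell, where 2142 of all genes fell. In these fits the falls were thus a larger share of the list than of all genes. Macrophage markers fell in the same samples, and their part in these falls was not tested.

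Among the other elongases, desaturases and partners of the elongation cycle, 7 of 13 tested rose and 5 fell, with a median of 0.52, where 43.5% of all tested genes were called. The dehydratases Hacd2 and Hacd1 rose by 0.82 ± 0.10 and 0.52 ± 0.076 and the elongase Elovl5 by 0.54 ± 0.069, while the delta-5 desaturase Fads1 fell by 0.73 ± 0.11 (SE; limma adjusted p from 0.00377 to 0.00524). Fads1 was at 22.9, 25.2 and 25.9 FPKM in control and at 16.9, 14.7 and 12.8 FPKM in knockout samples, which did not overlap. The numbers were 4 higher and 2 lower without control replicate 2, and 4 higher and 3 lower without control replicate 3. Of all 14383 tested genes, 2047 were higher and 1324 lower in the first of these fits, and 1897 higher and 1559 lower in the second. Set against the mature adipocyte markers, none was higher and 12 were lower, as were 19 of 19 other regulators and 21 of 21 cholesterol genes. On that scale 92.6% of all tested genes were called lower. Elovl2, Elovl4, Elovl7, Scd3 and Scd4 did not pass the filter.

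**Figure D5:**
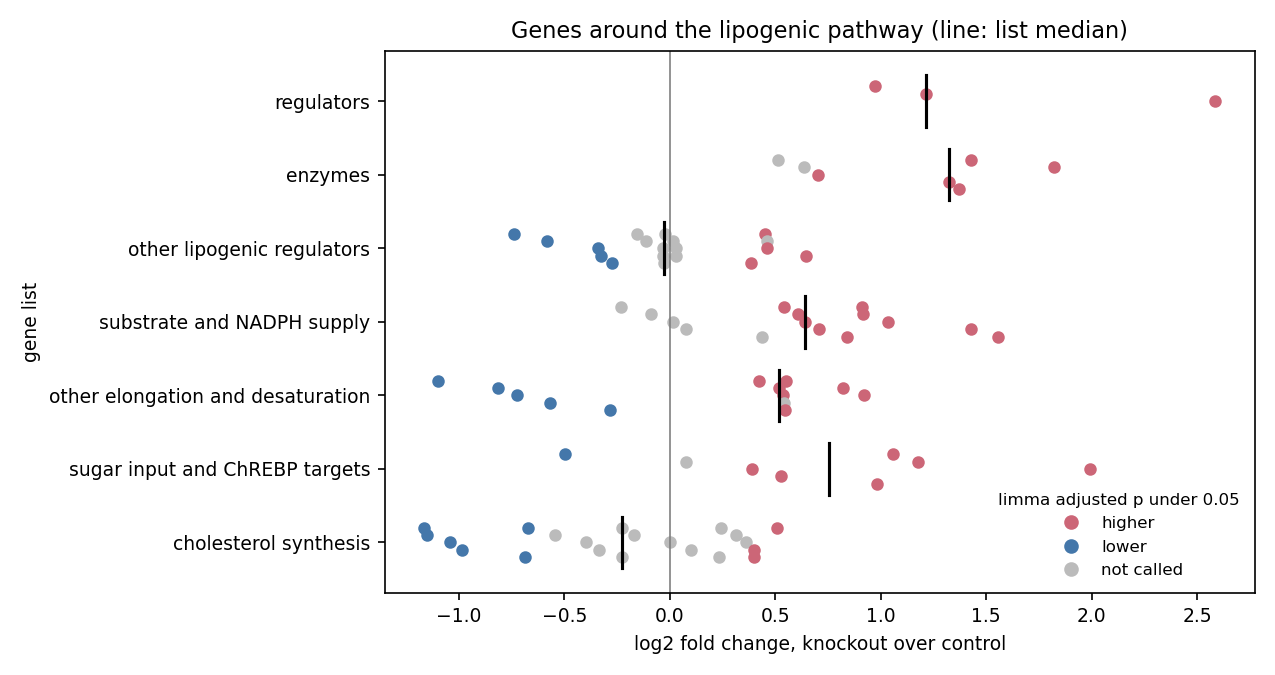
Log2 fold change, knockout over control, of every tested gene in the regulator and enzyme sets and in 5 lists of related genes, coloured by the call of limma, with a line at each list's median. The medians run from 1.33 for the enzymes to −0.23 for cholesterol synthesis.

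Over the 6 samples, the genes outside every list whose log2 values followed the mean of the 10 lipogenic genes most closely, among 8162 with at least 5 FPKM on average, were Lin52, Ajuba, Fahd2a, Dhrs7 and Slc25a44, with Pearson correlations of 0.997 to 0.999. The correlation is a description over 6 samples in 2 groups that share their libraries. Their log2 fold changes ran from 0.40 for Dhrs7 to 0.87 for Ajuba, and all 5 were highest in knockout replicate 3.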

How the data were processed

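RNA sequencing libraries (NEBNext Ultra kit) were made from total RNA of epididymal fat, 3 control and 3 knockout samples, per the labels' protocols. The submitters' processing notes name CASAVA, FastQC, STAR 2.5, HTSeq 0.6.1 and build mm10. No annotation release, strand setting or filter is given in the sources used here. The deposited values are FPKM per gene and sample, per the file headers, with one column of gene length. FPKM times length in kilobases summed to 1000000 in every sample, and 100% of values above 0 were whole multiples of 1 read within 0.01. This gave the reads behind each gene and library totals of 25252839 to 30650624, for which 3 reads across 2 kb correspond to 0.0489 to 0.0594 FPKM, counting error only. Of 35275 identifiers, 34490 matched GENCODE M21.

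The filter kept genes that reached 0.5 FPKM in 3 samples. They were fitted as log2(FPKM + 0.5) with limma 3.58.1 (R 4.3.3) on genotype alone, with trend and robust moderation. Tests were two-sided, with p adjusted by Benjamini-Hochberg across all 14383 genes. The procedure was tested on simulated data in which far fewer genes changed than were called here. Errors given with log2 fold changes are limma standard errors. The members, gene lists and marker lists were chosen with earlier results of these data known. Named were all 10 members, Tfrc, up to 4 called genes with the smallest p per related list, and the 5 genes most alike. Some genes that this rule names are not reported here. The ratios to Fasn were chosen after values were seen. Promoter windows are from RefSeq. Alternatives were pseudocounts of 0.1 and 1, a filter at 1 FPKM or none, a replicate block, limma-voom on recovered reads with trimmed-mean scaling, median-of-ratios scaling, centring on adipocyte markers, plain moderation and each sample left out. Leaving out knockout replicate 3 with control replicate 2 was added after seeing the data.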

Additional observations from a re-analysis of the deposited data

How the results depend on the processing

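The count of 8 lipogenic genes called, and the 3 regulators and 5 enzymes in it, stayed within 1.5 times under the other pseudocounts and filters, limma-voom, median-of-ratios scaling and plain moderation, which gave 7 or 8 genes (7 with no filter, where Elovl6 was lost). Centring on the adipocyte markers gave 4 genes, 1 regulator higher and 3 enzymes lower, and called 13336 of all genes, 24 higher and 13312 lower, against 3147 higher and 3106 lower; it takes 1.51 from each difference, which put below 0 the values of Mlxipl (−0.30), Srebf1 (−0.54), Acly (−0.88), Acaca (−0.19), Acacb (−0.14), Fasn (−0.084), Me1 (−0.999) and Elovl6 (−0.81). Of these, Acly, Me1 and Elovl6 were called lower, and the values of the others were not called in either direction. The errors behind these calls carry the spread of the marker mean, which all genes share. Leaving out 1 sample in turn gave 2 to 8 lipogenic genes, 1 to 3 regulators, 1 to 5 enzymes, 27 to 47 genes of the other lists against 47, and 3371 to 5958 of all genes against 6253; the low ends came without control replicate 2 or 3, and the cause was not tested. The gap between regulators and enzymes was −0.199 to −0.00819 with 1 sample left out and turned to 0.016 without knockout replicate 3 and control replicate 2. With the replicate number as a block 8 lipogenic genes, 35 of the other lists and 4581 of all genes were called. Deviations of same-numbered samples from their group means correlated at −0.24, 0.03 and −0.18, and no sample correlated best with its own number. With 3 samples per group the deviations depend on each other, so these values do not settle whether the numbers pair the samples. Acly and Me1, with standard errors of 0.30 and 0.24, could not be told from no change, though genes with smaller errors were called at changes of that size.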

Other observations

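Ratios between further pairs of lipogenic genes, chosen after their values were seen, showed how the balance differed within samples. The ratio of Scd1 to Elovl6 was 477, 469 and 313 in control and 725, 795 and 1011 in knockout samples. Thrsp was at 14.0, 9.54 and 12.3 times the level of Mlxipl in control and 28.4, 28.8 and 31.6 times in knockout samples. For Srebf1 over Mlxipl the values were 4.84, 5.06 and 4.77 in control and 4.28, 4.36 and 3.47 in knockout samples. Scd1 over its copy Scd2 was at 16.0, 16.0 and 11.9 in control and 29.9, 27.9 and 51.1 in knockout samples. The groups did not overlap in any of these 4 ratios, and the two-sided exact permutation p of each was 0.10, the smallest that 3 samples against 3 allow, with no adjustment.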
